A study of Mus musculus with 2 samples.

Results

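Neutrophils with few or no transcripts of the chemokine genes Ccl3 and Ccl4 were taken from single-cell RNA data of tongue tumours. The rule kept barcodes of 200 genes or more whose UMIs (unique molecular identifiers, the counted transcript molecules) were under 20% mitochondrial and in which S100a8 and S100a9 made up at least 0.5% of UMIs. It also asked for at least 1 UMI of Csf3r, Cxcr2, Retnlg or Clec4d, for Camp, Ngp and Ltf under 1% of UMIs, for no UMI of C1qa or Cd3e and for Krt5 and Krt14 under 0.5%. Members had fewer than 5 UMIs of Ccl3 and Ccl4 together. The rule found 84 barcodes in the control library and 84 in the JQ1 library, 168 of 22737 kept barcodes. Neutrophils that passed the other conditions with 5 or more UMIs numbered 368 in control and 455 in JQ1, and are called high neutrophils. The tumours were squamous cell carcinomas of the tongue in wild-type C57BL/6 mice that had all been given 4NQO, a carcinogen that mimics tobacco damage. JQ1, a small molecule that displaces BET bromodomain proteins from acetylated chromatin, or control was given for 10 days. The labels give 1 library per treatment and do not say how many mice each held, so there are no replicates and no tests were run. All intervals are 95% intervals that cover counting error only.

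Neutrophils mature in the bone marrow, where they fill their granules, and enter blood with transcripts of Retnlg, Csf3r (the G-CSF receptor) and Cxcr2 (the receptor for CXCL1 and CXCL2). In inflamed tissue and tumours they switch on chemokines and cytokines, many of them under NF-kB. CCL3 and CCL4 are chemokines that draw in other leukocytes.

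The members were shallow barcodes, apart from a few deep ones in JQ1. Median depth was 1418.5 UMIs in control (quartiles 871.75 to 1870.5, highest 4731) and 1507 in JQ1 (864.75 to 2010.25, highest 22957), against 1670.5 and 1851 in high neutrophils. The 84 control members held 126726 UMIs and the 84 JQ1 members 191212. Of the JQ1 members, 7 were called doublets, 2 had over 10000 UMIs and 9 carried at least 2% of UMIs from markers of other cell types, and in control the counts were 0, 0 and 0. A deep JQ1 barcode (18436 UMIs) held 270 UMIs of Elane, 125 of Mpo and 115 of Prtn3, enzymes of the granules that form early in the marrow. The other deep barcode (22957 UMIs) held 1181 UMIs of Muc5b and 715 of Tff2, products of mucous glands, and neither held any UMI of Cxcl2 or Il1b. Together these conditions took in 16 JQ1 barcodes, which held 46.8% of the JQ1 members' UMIs, and no control barcode. Barcodes of these 3 kinds are called doubtful; among high neutrophils, leaving them out kept 358 control and 409 JQ1 barcodes. List counts of JQ1 against control, and the genes that lead them, are given with and without those 16 barcodes, a choice made after seeing the data. Of the 40 barcode sequences that occurred in both libraries, 1 was a control member.

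Markers of fibroblasts, glands, erythroid cells and pericytes or smooth muscle stood higher in the JQ1 than in the control members, and those of keratinocytes lower. The summed level of 9 fibroblast markers was 481.4 CPM (UMIs scaled to the total of the group) in control, 5277 in JQ1 and 1397 in the 68 JQ1 members left without the 16 barcodes. For 10 gland markers the levels were 126.3, 8101 and 1987 CPM, with Lpo at 0 throughout, and for 21 keratinocyte markers 1854, 816 and 964 CPM. The 7 erythroid markers summed to 15.8 CPM in control and 664 in JQ1, and to 777 without the 16 barcodes. Macrophage or monocyte markers summed to 220.9, 408 and 236 CPM, pericyte or smooth muscle markers to 15.8, 1266 and 128, endothelial markers to 174, 230.1 and 344, Schwann-cell markers to 31.6, 52.3 and 49.2, and T or NK markers to 78.9, 78.4 and 0. B-cell, eosinophil, dendritic, mast-cell, platelet and skeletal-muscle lists each stayed at or under 15.8 CPM in both libraries. The rule allowed no UMI of C1qa or Cd3e, which are on the macrophage and T or NK lists. It also limited the keratins Krt5 and Krt14. Markers of other cell types helped to choose the 16 barcodes, so lower sums without those barcodes follow in part from that choice. These sums are thus a description of the members and no check of them. The part of RNA from other cell types in the differences between libraries was not tested.

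The marker genes first given here are ones the rule used, so their presence is a description of the members and no check of them. S100a8, a subunit of the calprotectin that fills neutrophil cytosol, was found in 83 of 84 control and 84 of 84 JQ1 members. Retnlg, a resistin-like secreted protein, was found in 61 and 63, Csf3r in 41 and 50, and Cxcr2 in 19 and 29. In fibroblasts of the same libraries, which were deeper (median 3232 and 4090 UMIs), Retnlg had a UMI in 0.619% and 1.78%, Csf3r in 0.412% and 0.453% and Cxcr2 in 0% and 0.264%, the 0 allowing, at 3 counts, a UMI in up to 0.619% of 485 cells. S100a8 had a UMI in 18.6% and 11.3% of fibroblasts. Ly6g, the usual surface marker of mouse neutrophils and no part of the rule, was seen in only 1 control and 6 JQ1 members. It was scarce in high neutrophils too, seen in 4 of 368 in control and 24 of 455 in JQ1. S100a8 and S100a9 together made up a median of 4.92% of UMIs in control members and 7.50% in JQ1 members, against 3.58% and 5.97% in high neutrophils.

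**Figure D1:**
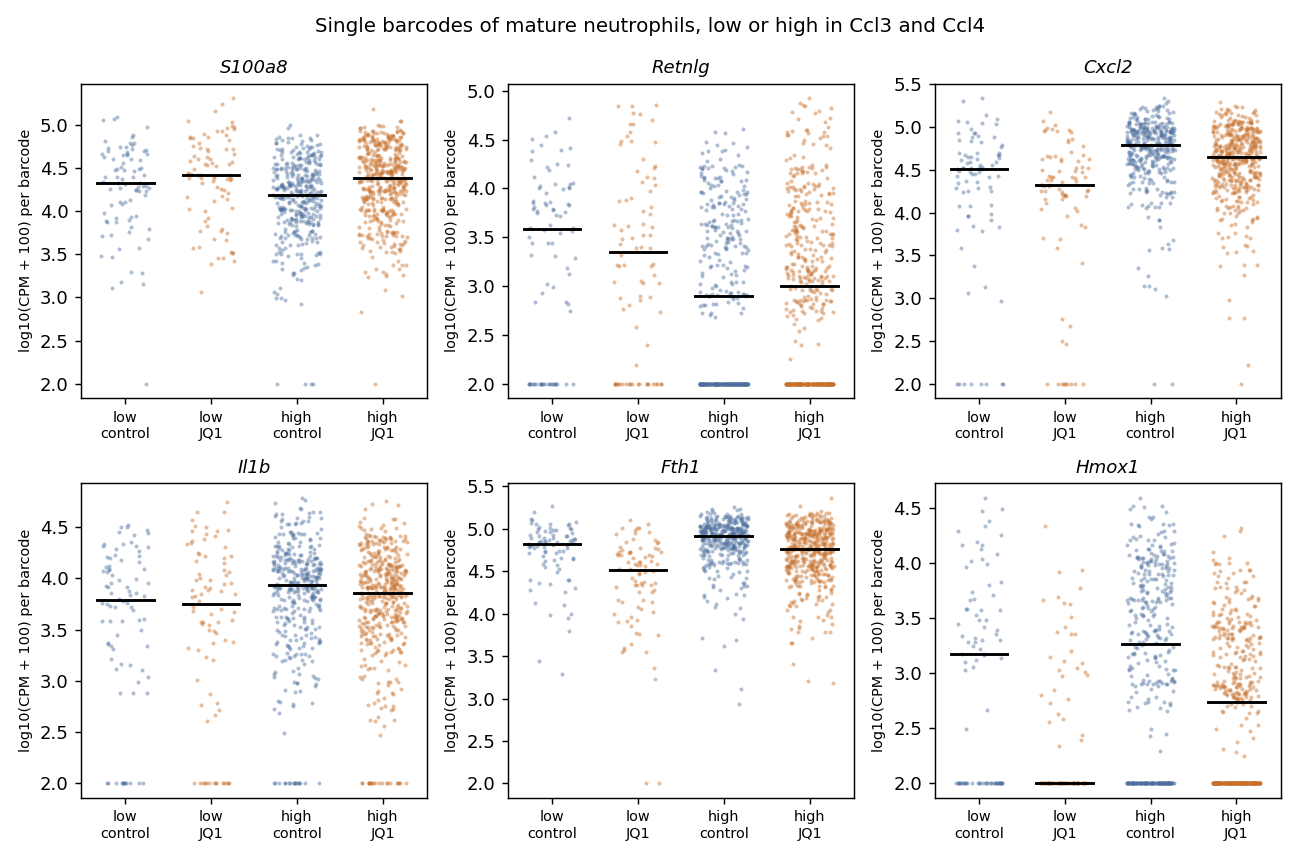
Each point is 1 barcode, placed by library and by class (low, under 5 UMIs of Ccl3 and Ccl4; high, 5 or more), with log10(CPM + 100) on the vertical axis and black lines at the medians; points at 2.0 have no UMI of the gene. Retnlg reached higher medians in low than in high neutrophils, Cxcl2 lower ones, and Hmox1 had a median of no UMI only in the JQ1 low group.

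Among mature neutrophils the low cells were a minority in both libraries. They made up 18.6% (15.1 to 22.5, exact Clopper-Pearson) of 452 in control and 15.6% (12.6 to 18.9) of 539 in JQ1. The difference, JQ1 minus control, was -3.0 percentage points with a Newcombe interval from -7.77 to 1.68. After each cell was thinned to 1000 UMIs the shares were 24.7% of 393 and 23.03% of 482, leaving out 59 control and 57 JQ1 cells with fewer. The neutrophils set aside for granule transcripts differed more: they were 0.659% (0.136 to 1.91) of the control library's 455 gated neutrophils, or 3 cells, and 20.1% (17.2 to 23.4) of the JQ1 library's 675, or 136 cells.

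Most members had no Ccl3 or Ccl4 UMI at all: 55 of 84 in control and 43 of 84 in JQ1. Counts of 1, 2, 3 and 4 UMIs were found in 9, 9, 6 and 5 control members and in 17, 12, 6 and 6 JQ1 members. Just outside the limit, 15 control and 16 JQ1 neutrophils held exactly 5 UMIs, with median depths of 1439 and 1991.5 UMIs. The high neutrophils had medians of 36 and 32 UMIs and reached 399 and 483. Ccl3 stood at 371 CPM in control and 251 CPM in JQ1 members, against 15562 and 9163 in high neutrophils, and Ccl4 at 142 and 183 against 10307 and 10358. These values chose the members and are a description.

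The inflammatory genes that follow were read beside their promoters, since many are textbook NF-kB targets. RefSeq sequence of the 250 bases before the transcription start (GRCm38.p6, gene strand, 5′ to 3′) is shown for Ccl3, which the rule used, for Cxcl1 and Cxcl3, which were lower in low neutrophils, and for Retnlg, which was higher. Capitals mark matches to GGGANNNNCC on either strand, a common form of the NF-kB site, with overlapping matches run together.
Ccl3 (chr11:83649379-83649628, minus strand): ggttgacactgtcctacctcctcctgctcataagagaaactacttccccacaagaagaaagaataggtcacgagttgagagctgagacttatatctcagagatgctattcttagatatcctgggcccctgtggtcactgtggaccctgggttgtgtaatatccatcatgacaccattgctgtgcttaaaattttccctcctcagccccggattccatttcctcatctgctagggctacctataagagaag
Cxcl1 (chr5:90890995-90891244, plus strand): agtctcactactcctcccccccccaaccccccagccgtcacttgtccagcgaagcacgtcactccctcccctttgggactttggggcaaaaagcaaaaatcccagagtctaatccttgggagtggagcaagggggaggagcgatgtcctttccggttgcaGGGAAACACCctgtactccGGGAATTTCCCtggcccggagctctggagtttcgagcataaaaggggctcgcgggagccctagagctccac
Cxcl3 (chr5:90785851-90786100, plus strand): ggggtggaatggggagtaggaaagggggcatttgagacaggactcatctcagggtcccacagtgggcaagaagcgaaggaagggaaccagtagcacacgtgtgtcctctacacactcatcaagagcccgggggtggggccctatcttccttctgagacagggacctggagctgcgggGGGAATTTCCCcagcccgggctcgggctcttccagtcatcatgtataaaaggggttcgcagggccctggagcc
Retnlg (chr16:48872358-48872607, plus strand): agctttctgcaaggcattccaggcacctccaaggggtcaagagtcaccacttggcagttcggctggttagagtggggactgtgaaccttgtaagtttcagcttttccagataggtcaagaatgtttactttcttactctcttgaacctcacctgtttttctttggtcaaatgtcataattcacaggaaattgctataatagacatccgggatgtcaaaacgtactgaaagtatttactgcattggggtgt
Cxcl1 and Cxcl3 shared the stretch GGGAATTTCCC, and Cxcl1 had another match upstream of it, while the windows of Ccl3 and Retnlg held none. Of the 10 inflammatory genes that were lower in low neutrophils (below), 9 had a promoter entry and 4 of these held a match, namely Il1rn, Cxcl3, Cxcl1 and Ccrl2. Il1a, Icam1, Bcl2a1d, Bcl2a1b and Tnf held none. Among all 27025 genes with an entry, 4684 (17.3%) held a match. The 10 genes came from a list drawn up partly of NF-kB genes, so these shares cannot be compared as a trait of low neutrophils. A match describes letters in this window and does not show a bound site.

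Low and high neutrophils differed in cytokine and chemokine genes beyond Ccl3 and Ccl4. The members were chosen by these cells' own chemokine counts, so the contrast is a description. A gene was counted as higher or lower where both libraries differed by 1.5-fold or more in the same direction and both ratio intervals excluded 1; of 4496 measured genes, 0.912% were higher and 1.02% lower. The median log2 ratio over all measured genes was 0.14. Of 30 measured genes on a list of inflammatory cytokine and NF-kB genes, 10 were lower, none was higher, and the median log2 ratio was -0.47. Without the doubtful barcodes the counts were 11 lower and 0 higher, beside 0.927% and 1.09% of all 3775 measured genes, and the median stayed at -0.47.

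Tnf, a master cytokine of inflammation, stood at 963 CPM in low and 2373 in high neutrophils of the control library and at 497 and 2018 in JQ1. It was 2.47-fold (2.05 to 2.99) and 4.06-fold (3.31 to 5.04) lower in low neutrophils. Il1a, a cytokine released as an alarm signal, was at 749.6 and 2218 CPM in control and 256 and 1489 in JQ1, a 2.96-fold and 5.81-fold difference. A single control barcode held 36.8% of the low Il1a UMIs, and 23 of 84 control and 18 of 84 JQ1 members had any. Il1rn, the antagonist that blocks the IL-1 receptor, was lower too, at 529 against 1106 CPM in control and 256 against 1073 in JQ1. Il23a, a subunit of the cytokine IL-23, was at 142 against 704 CPM and at 109.8 against 317.

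The neutrophil-attracting chemokines differed less evenly. Cxcl3 was 2.74-fold lower in both libraries, from 1209 to 442 CPM in control and from 2726 to 994 in JQ1, with 57.1% of the control low UMIs in a single barcode. Cxcl1 was at 237 against 534 CPM in control and at 126 against 599 in JQ1. Cxcl2, the most abundant of them, stayed high in low neutrophils at 42935 CPM in control and 19345 in JQ1, against 56850 and 41472 in high neutrophils. Its ratios were 0.755 and 0.466, so that it missed the 1.5-fold limit in control. Without the doubtful barcodes Cxcl2 was 1.52-fold and 1.65-fold lower, with 33850 CPM in the JQ1 members. Il1b was nearly level, at 9193 against 9623 CPM in control and 5904 against 7234 in JQ1.

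Few survival genes were lower in low neutrophils. Bcl2a1b, a member of the BCL2 family that protects neutrophils from apoptosis, was at 418 against 1134 CPM in control and at 214 against 1081 in JQ1. Its near-identical copies Bcl2a1a and Bcl2a1d were also lower, and reads of the 3 copies may have been split between them. These were the 3 lower genes of 19 measured survival and apoptosis genes, none of which was higher. Nlrp3, the inflammasome sensor and the only lower gene of 26 measured pattern and Fc receptors, was 1.80-fold and 2.33-fold lower, and Icam1, an adhesion receptor, 1.84-fold and 1.88-fold. Csf3, which encodes G-CSF, was at 39.5 against 204 CPM and 62.8 against 187.5, from 4 and 6 members with a UMI. Spp1, osteopontin, was at 55.2 against 347 CPM and 397 against 1162, with 53.9% of the JQ1 low UMIs in a single barcode.

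Another set was higher in low neutrophils, 41 genes against 46 lower, and 41 against 35 without the doubtful barcodes. Retnlg was at 8664 CPM in low and 4175 in high neutrophils of the control library and at 8655 and 4984 in JQ1, ratios of 2.08 (1.94 to 2.22) and 1.74 (1.64 to 1.83). It counts toward the rule, where 1 UMI of any of 4 genes was enough. It was the only higher gene of 28 measured on the list of circulating neutrophil genes, whose median log2 ratio was 0.33. With the limit set at 0.2% of UMIs that median turned to -0.34. This form lets deep barcodes pass with more Ccl3 and Ccl4 UMIs, such as a control barcode of 47406 UMIs with 24. The part of such barcodes in the turn of that median was not tested. Without the doubtful barcodes 5 of 30 were higher, among them Retnlg, Selplg (an adhesion glycoprotein of leukocytes), the granule collagenase Mmp8 and the calcium-binding S100a6. Spi1, which encodes PU.1, a factor of the myeloid lineage, was 1.88 and 1.5 times as high in low neutrophils.

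Of 34 measured genes of the immediate-early and dissociation list 4 were higher in low neutrophils, namely Hspa1a, its copy Hspa1b, Jun and Jund. Hspa1a, an inducible HSP70 chaperone, was at 2580.4 against 688 CPM in control and 2296 against 1098 in JQ1, and Hspa1b at 1925 against 724 and 2787 against 1345. Only 25 control and 35 JQ1 members had a UMI of Hspa1a, and single barcodes held 23.9% and 21.6% of its UMIs. Jun, part of the AP-1 factor, was 1.68 and 1.59 times as high. Without the doubtful barcodes 4 of 34 were again higher, with Fos in place of Jund. Of 12 measured mitochondrial genes 5 were higher and none lower, and without the doubtful barcodes mt-Co1 and mt-Co2 were the 2 higher. The gene mt-Co1 was at 3788 against 1800 CPM in control and 4916 against 2984 in JQ1, ratios of 2.10 and 1.65, with 28.1% of its control low UMIs in a single barcode. The median mitochondrial share per barcode was 0.349% in low and 0.311% in high neutrophils of control, and 0.534% and 0.518% in JQ1. The part of cell handling or RNA quality in these differences was not tested.

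Some differences were not counted once the doubtful barcodes were left out. Cd74, H2-Aa, H2-Ab1 and H2-Eb1, the 4 measured genes of MHC class II presentation, were all lower in low neutrophils. None of the 4 was counted without the doubtful barcodes, and their median log2 ratio went from -3.14 to -1.42. For Cd74 the control ratio stayed low, at 0.141 and then 0.119, from 3 low UMIs, while the JQ1 ratio went from 0.300 to 1.09. H2-Ab1 is also a dendritic marker, so it helped to mark barcodes as doubtful. Amy1, an amylase of glands, was also no longer counted, with ratios of 0.0747 and 0.247 that became 0.611 and 1.45. In control high neutrophils the keratinocyte markers summed to 8619 CPM, against 1854 in the low ones. Of the 12 genes named as higher, 8 were still counted without the doubtful barcodes, and of the 12 named as lower, 10. Kin, Rgs19, Jund and Rsrp1 were the higher ones no longer counted, though their ratios kept the same direction. In control and JQ1 they were then 3.48 and 2.53 for Kin and 3.11 and 2.53 for Rgs19. For Jund they were 1.43 and 1.38, and for Rsrp1 1.41 and 1.59.

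**Figure D2:**
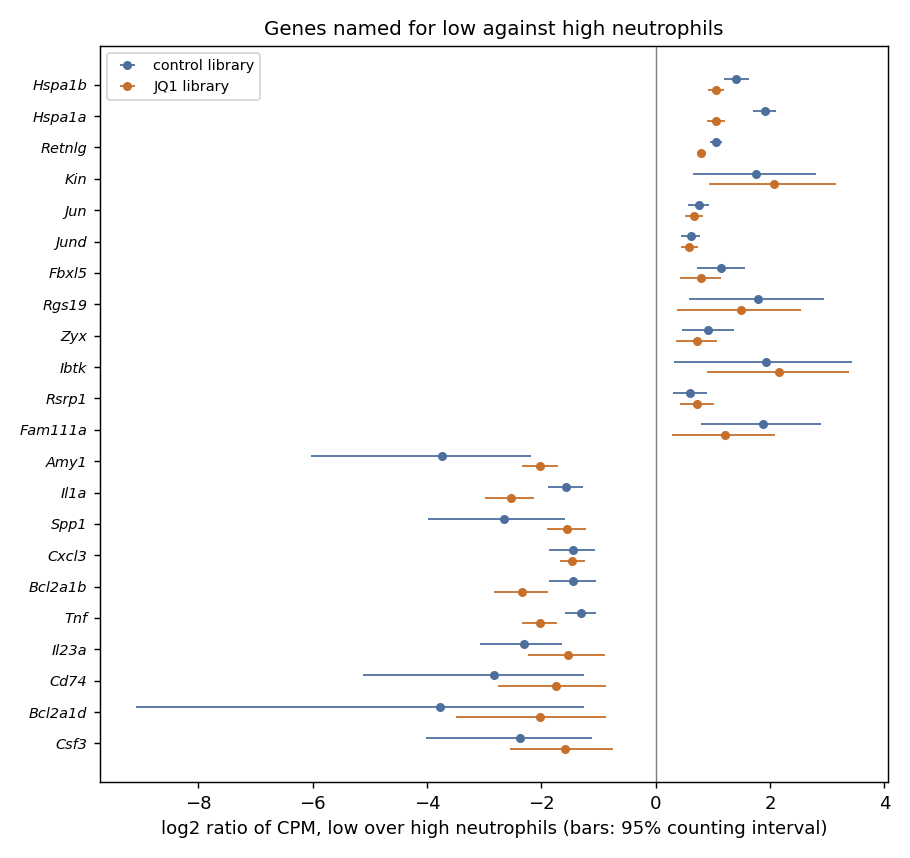
Points give the log2 ratio of CPM in low over high neutrophils for the named genes other than Ccl3 and Ccl4, blue for the control library and orange for JQ1, with 95% counting intervals as bars. The 12 upper genes lie right of 0 and the 10 lower genes left of 0 in both libraries, and Il1a, Tnf and Bcl2a1b lie further left in JQ1.

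Some of these genes were graded with the number of Ccl3 and Ccl4 UMIs in barcodes of like depth and others were not; the groups come from the counts the rule used, so the values are a description. Among barcodes of 1000 to 4000 UMIs, without doublet calls and with markers of other cell types under 2%, those with 0, 1 to 4, 5 to 19 and 20 or more UMIs numbered 37, 19, 89 and 231 in control and 17, 30, 100 and 266 in JQ1. Retnlg went from 9952 through 7403 and 4976 to 4899 CPM in control, and from 26658 through 12614 and 10113 to 5606 in JQ1. Tnf went the other way, from 946 through 1338 and 2325 to 2969.6 CPM in control and from 915 through 989 and 1688 to 3324 in JQ1. Bcl2a1b ran from 347 through 399 and 831 to 1501 CPM and from 189 through 514 and 1009 to 1706. Of 8 inflammatory genes followed this way, 3 stood in rising order over the 4 groups in control, namely Tnf, Il1rn and Bcl2a1b, and all but Il1b did in JQ1. In control Il1a was at 978, 740, 2313 and 2827 CPM and Cxcl2 at 41433, 54126, 52442 and 72845, and Nlrp3, Ccrl2 and Il1b were out of order too. The groups of 19 control and 17 JQ1 barcodes are thin, and they differ between libraries, at 1 to 4 UMIs in control and 0 in JQ1. The order broke at these groups. Over the other 3 groups of each library all 8 genes stood in rising order, which follows in part from that choice and is no separate support. Hmox1 showed no such order in control, at 5347, 5751, 4845 and 5301 CPM. Hspa1a was high in the group with no UMI alone, at 4038 CPM in control and 2114 in JQ1, and between 340.1 and 713 CPM in the other 6 groups.

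**Figure D3:**
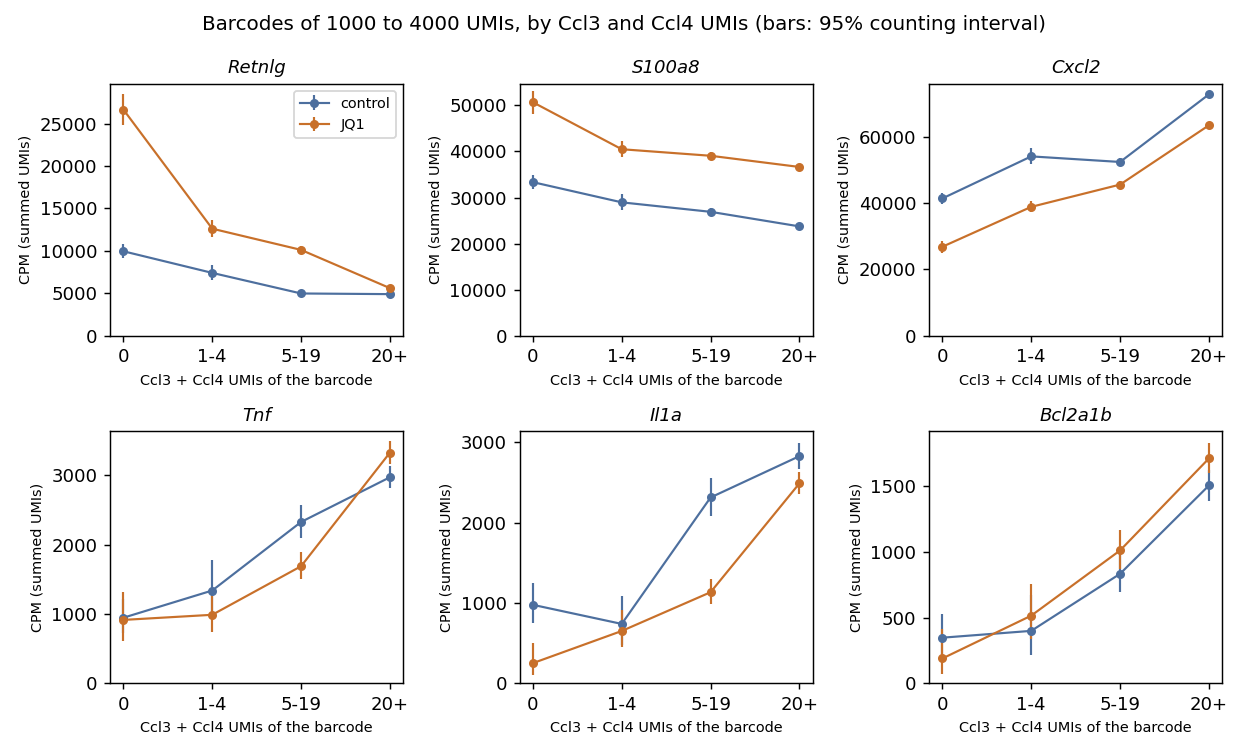
Levels (CPM of summed UMIs, bars for 95% counting intervals) are plotted against the barcode's UMIs of Ccl3 and Ccl4 in 4 groups, for the control library in blue and JQ1 in orange. Retnlg and S100a8 are highest at 0 UMIs, while Tnf, Cxcl2 and Bcl2a1b are highest at 20 or more in both libraries.

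JQ1 was then compared with control within the low neutrophils. A gene was counted where the 2 libraries differed by 1.5-fold or more and the interval of the ratio excluded 1; of 2108 measured genes, 20.2% were higher in JQ1 and 12.6% lower. Without the 16 barcodes 9.46% of 1437 measured genes were higher and 7.38% lower. The median log2 ratio over all measured genes was 0.02 with all members and -0.02 without the 16. In high neutrophils 18.5% of 4328 measured genes were higher and 9.52% lower, and 8.67% and 10.6% of 3620 once the same kinds of barcode were left out. With 1 library per group these counts compare libraries and cannot be told apart from differences between mice or preparations.

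Hmox1, Fth1, Ftl1 and Sqstm1 were lower in the JQ1 members with and without the 16 barcodes. Hmox1, the enzyme that breaks down haem, was at 5027 CPM (4644 to 5433) in control and 753 (635 to 887) in JQ1, from 51 and 32 of 84 members with a UMI. That was 6.67-fold lower with all members and 4.09-fold lower without the 16 barcodes. In high neutrophils it was 3.82-fold lower, at 4296 and 1125 CPM, while over all kept barcodes it stood at 104 CPM in control and 157 in JQ1. Fth1, the ferritin heavy chain, was at 67121 and 25338 CPM, and Ftl1, the light chain, at 13494 and 5104. Without the 16 barcodes their JQ1 levels were 40923 and 7112 CPM, 1.64-fold and 1.90-fold below control. In high neutrophils Fth1 was at 72471 and 51621 CPM, 1.40-fold lower and under the 1.5-fold limit, and Ftl1 at 13063 and 6454.5, 2.02-fold lower. Sqstm1, the autophagy receptor p62, was at 1239 and 303 CPM, 4.08-fold lower and 3.0-fold without the 16. On the list of suppressive and tumour neutrophil genes, 8 of 23 measured genes were lower and 2 higher, beside 12.6% and 20.2% of all measured genes. Without the 16 barcodes 4 of 22 were lower and 3 higher, beside 7.38% and 9.46%. The 4 were Fth1, Ftl1, Hmox1 and Cstb, and the 3 were Spp1, Cd84 and Ccl4, the last of which the rule itself used. Cstb, an inhibitor of lysosomal proteases, was at 1578 and 465 CPM, and at 748 without the 16.

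All 12 genes named as lower were also lower by 1.5-fold without the 16 barcodes, and 6 of them had over 20% of their JQ1 UMIs in a single barcode. Asprv1, an aspartic protease known from skin and neutrophils, was at 4017 CPM in control and 910.0 in JQ1, 4.41-fold lower and 2.52-fold without the 16. Ldha, which makes lactate in glycolysis, was at 963 and 256 CPM, 3.76-fold and 3.37-fold lower. Saa3, an acute-phase protein, was at 2959 and 539 CPM, and 354 without the 16, but only 16 and 21 members had a UMI and 1 JQ1 barcode held 39.8% of them. With the limit at 10 Ccl3 and Ccl4 UMIs its log2 ratio turned to 1.66, and in high neutrophils it was at 3160 and 3826 CPM. BC100530 and Stfa2, cystatin-like stefins of neutrophils, were seen in 11 and 14 control and 4 and 5 JQ1 members, at 339 and 268 against 47.1 and 47.1 CPM, and each at 78.7 without the 16. Their near-identical copies make both uncertain. AA467197, at 608 and 120.3 CPM, F10 (coagulation factor X), at 229 and 36.6, and Klhl6, at 158 and 15.7, completed the set. Without the 16 barcodes AA467197 was at 207 CPM in JQ1 and F10 and Klhl6 at 29.5 each, from 3 UMIs.

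Part of the inflammatory list was lower in JQ1, and fewer of its genes without the 16 barcodes. With all members 13 of 28 measured genes were lower and 1 was higher in JQ1, beside 12.6% and 20.2% of all measured genes. Without the 16 barcodes 6 were lower and 2 higher, beside 7.38% and 9.46%. The median log2 ratio of the list was -0.84 with all members and -0.15 without the 16. Cxcl2 changed from 0.451 to 0.788 times the control level, Il1b from 0.642 to 1.11 and Tnf from 0.516 to 0.909. The 6 that stayed lower were Il1a, Marcksl1, Cxcl1, Birc3, Icam1 and Sod2. Sod2, the mitochondrial superoxide dismutase, was at 1270.5 CPM in control, 418 in JQ1 and 492 in JQ1 without the 16. Icam1 was at 529, 288 and 295 CPM. Cxcl3 was higher in JQ1 both ways, at 442 CPM in control, 994 in JQ1 and 1731 without the 16, from 7 control and 23 JQ1 members.

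The counts for circulating neutrophil genes changed direction once the 16 barcodes, which held 46.8% of the JQ1 members' UMIs, were set aside. With all members 1 of 27 measured genes was higher and 4 were lower, beside 20.2% and 12.6% of all measured genes. Without the 16, 7 of 26 were higher and none was lower, beside 9.46% and 7.38%. The 7 were Retnlg, S100a9, Mmp9, Mxd1, Fpr1, Lrg1 and Anxa1; Retnlg and S100a9 are genes the rule used, and the other 5 are not. Retnlg was at 8664 CPM in control and 8655 in JQ1, a ratio of 0.999 (0.925 to 1.08), and at 15189 CPM and 1.75 times control without the 16. S100a9 was at 38248 and 39600.0 CPM and at 59083 without the 16. Mmp9, the gelatinase of tertiary granules, was 1.58 times as high with all members and 2.37 times without the 16. Fpr1, a receptor for bacterial formyl peptides, was at 284, 324 and 609.9 CPM. In high neutrophils without such barcodes 10 of 30 measured genes of this list were higher and none was lower. Over all measured genes the shares there were 8.67% and 10.6%. Among the 10 were S100a8 and S100a9, which the rule used, at 1.51 and 1.64 times control. Retnlg, not among them, was at 1.37.

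Receptor and survival lists had fewer lower genes without the 16 barcodes, as did all measured genes. Over all measured genes 12.6% were lower and 20.2% higher with all members. Without the 16 barcodes these shares were 7.38% and 9.46%, and the counts below are to be read beside them. Among chemoattractant and cytokine receptors 6 of 24 measured genes were lower with all members, and none of 23 was lower and only Fpr1 higher without the 16 barcodes. Pattern and Fc receptors went from 7 of 18 lower to 1 of 18 lower and 1 higher, and their median log2 ratio from -0.55 to 0.20. Survival genes went from 6 of 13 lower to 1 of 13, Birc3, an inhibitor of apoptosis, with Gadd45a higher. Of hypoxia and glycolysis genes 7 of 24 were lower, and without the 16 barcodes Ldha, Pgam1 and Hilpda of 20 were lower while Slc16a3 and Pfkfb3 were higher, with medians of -0.43 and -0.35. Of neutrophil lineage factors 2 of 13 were higher and 2 lower, against 4 of 11 higher and none lower without the 16 barcodes, the 4 being Zeb2, Mxd1, Cebpd and Runx1. Adhesion and migration genes had 1 of 19 higher and 2 lower, then 3 and 1 of 19, and MHC class I genes 2 of 11 higher, then 1 of 7. Immediate-early genes had 5 of 33 higher and 8 lower, then 5 and 6 of 31, the lower ones then including Hspa1a and Hspa1b. NADPH oxidase subunits, which make the respiratory burst, went from 2 of 7 lower and 1 higher to none of 6 in either direction.

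Interferon-response genes could be read for only 11 of the 44 found in the files. Ifitm3, which blocks virus entry, was higher in JQ1 at 947 CPM (814 to 1095) against 449.8 (341 to 583), and at 1033 CPM without the 16 barcodes, from 33 control and 42 JQ1 members. It is also made by fibroblasts, where 94.4% and 97.6% had a UMI, and fibroblast markers were higher in the JQ1 members as given above; their part in it was not tested. Slfn1 and Slfn2 were higher without the 16 barcodes only, at 3.46 and 1.69 times control. Isg15, a ubiquitin-like interferon product, was at 39.5 CPM in 3 control members and 78.4 in 6 JQ1 members, and at 138 CPM without the 16. The JQ1 high neutrophils held more UMIs in sum, 1168023 against 191212 in the low ones. In high neutrophils 10 of 18 measured genes of the list were higher in JQ1 and none was lower, beside 18.5% and 9.52% of all measured genes. Without the doubtful barcodes 10 of 17 were higher and none was lower, beside 8.67% and 10.6%. The difference between the classes was not tested.

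Genes known to respond to BET inhibitors gave few readable values. Hexim1, which sequesters the elongation factor P-TEFb and is a usual marker of BET inhibition, was at 103 CPM (54.6 to 175) in control and 209 (149 to 285) in JQ1, from 12 and 25 members. Its ratio was 2.04 (1.07 to 4.16), and 2.30 (1.13 to 4.92) without the 16 barcodes, against 1.2 (0.937 to 1.55) in high neutrophils without such barcodes. Txnip, a brake on glucose uptake, was 1.57 times as high with all members and 1.25 times without the 16. Cdkn1a, the cell-cycle inhibitor p21, is on the list of genes often raised by BET inhibitors. It was lower, at 1397 and 465 CPM, and at 748 CPM without the 16. Of 6 measured genes of that list 2 were higher, Txnip and Hexim1, and 1 was lower, beside 20.2% and 12.6% of all measured genes. The counts without the 16 barcodes were 1 higher, Hexim1, and 1 lower, Cdkn1a, of 4, beside 9.46% and 7.38%. In high neutrophils none of 7 was higher and only Cdkn1a was lower, with and without the doubtful barcodes. Only 4 of 17 genes often lowered by BET inhibitors were measured, none of them counted in either direction with all members. Without the 16 barcodes Ccl2, a monocyte-attracting chemokine, was the 1 gene measured and was lower, at 68.9 against 308 CPM (log2 ratio -2.16) from 7 and 39 UMIs; with all members it was at 371 CPM in JQ1.

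The 12 genes named as higher in JQ1 were mostly genes of other cells, and each had over 20% of its JQ1 UMIs in a single barcode. Without the 16 barcodes 6 of the 12 were still counted as higher, namely Muc5b, Agr2, Bpifb2, Dcn, Tff2 and Igfbp4. Muc5b was at 39.5 CPM in control and 6516 in JQ1, with 94.8% of its UMIs in 1 barcode, and at 462 CPM without the 16. Agr2 was at 7.89 CPM in control, from 1 UMI, and at 2160 in JQ1 and 698 without the 16. Agr2, Bpifb2, Tff2 and Aqp5 are secretory or gland genes, Dcn, Bgn, Igfbp4 and Inmt are genes of stroma, Acta2 is the actin of smooth muscle, and Zbtb20 is a transcription factor of many cell types. Over all kept barcodes Muc5b stood at 375 CPM in control and 12751 in JQ1. Camp, a secondary-granule peptide, had 1 UMI in control and 125 in JQ1, with 70.4% in 1 barcode and 3 left without the 16. On the list of granule genes 8 of 17 measured genes were higher and 5 lower with all members, beside 20.2% and 12.6% of all measured genes. Without the 16 barcodes 2 of 7 were higher, Ngp and Lyz2, and 3 lower, Chil3, BC100530 and Stfa2. The shares over all measured genes were then 9.46% and 7.38%, and the median log2 ratio of the list was -0.90. Elane and Mpo were then at 0 in both libraries, which at 3 counts allows up to 23.7 CPM in control and 29.5 in JQ1. Chil3, a chitinase-like granule protein, was lower both ways, at 2075 CPM in control, 795 in JQ1 and 807 without the 16.

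**Figure D4:**
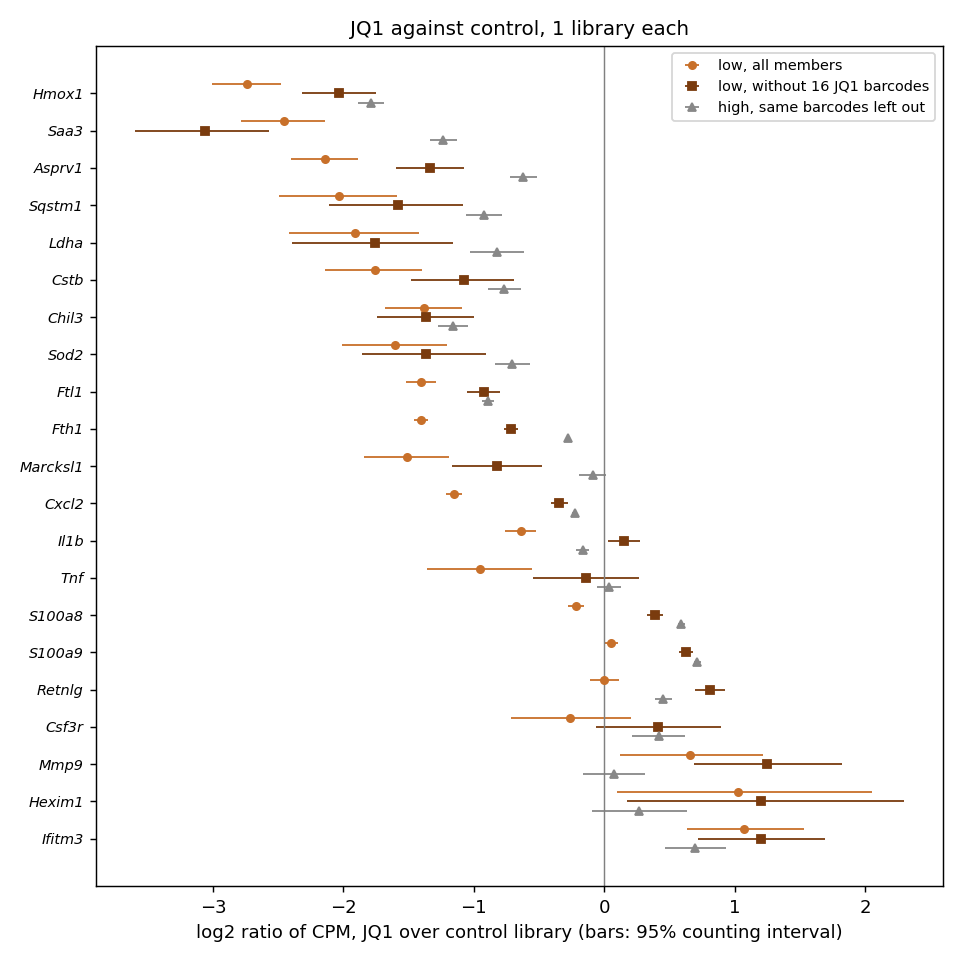
The horizontal axis gives the log2 ratio of CPM, JQ1 over control, with 95% counting intervals as bars, for all low members (circles), low members without 16 JQ1 barcodes (squares) and high neutrophils without barcodes of those kinds (triangles). Hmox1, Sqstm1, Ldha, Cstb, Chil3, Sod2 and Ftl1 lie left of 0 in all 3 sets, while Il1b, S100a8 and Csf3r change side when the 16 barcodes are left out.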

How the data were processed

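Single-cell 3′ RNA libraries (10x 3′ v3.1, MGI2000 sequencer, per the labels' protocols) were analysed from the deposited matrices, which hold whole-number UMI counts for 31053 genes in 2 libraries with the same gene order, per the file headers. In the submitters' processing notes the mm10 build, Seurat 4.0.0 and Cell Ranger 3.1.0 are listed without roles; which filter made the deposited counts the sources do not say, and the lowest barcode held 500 UMIs. The control library held 118382532 UMIs in 9754 barcodes (8269 kept at 200 genes and under 20% mitochondrial UMIs) and the JQ1 library 99565417 in 16233 (14468 kept). The members and gene lists were chosen with earlier results of these data known.

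For each library the members' UMIs were added up gene by gene and expressed as CPM of their total, with exact Poisson intervals; ratios carry exact conditional intervals, and a count of 0 was set to 3 counts in ratios. A gene was measured at 20 UMIs over the groups compared and a mean of 20 CPM. With 1 library per group no test was made and cells were not used as replicates. Doublets were called with Scrublet (scanpy 1.11.5), marking 119 control and 424 JQ1 kept barcodes. The main sums kept them. They were left out of the sums without doubtful barcodes, in low and in high neutrophils, and of the groups by Ccl3 and Ccl4 UMIs. An alternative setting left them out too. Fibroblasts used for background were kept barcodes with Dcn, Col1a2 and Col3a1 of at least 1% of UMIs together. They also had no UMI of the leukocyte gene Ptprc, and Krt5 and Krt14 under 0.5%. The Ptprc condition can lower the shares of neutrophil genes given for them. Genes were named by rule: the 12 highest and 12 lowest by the interval bound nearest to 1, where the higher group had at least 50 CPM, a UMI in 5% of its cells and a level of at least 0.5 times that of all kept barcodes, and members of the gene lists; others named were chosen after their values were seen, and 1 gene of the lists is not reported here. That ranking skipped mitochondrial, ribosomal, globin, Y-linked, antigen-receptor and unnamed predicted genes. Interval code was tested on simulated counts. Promoters came from RefSeq (GRCm38.p6), matched by symbol; Ccl4, Il23a and Hmox1 had no entry. Alternatives changed the cell and Ccl3 and Ccl4 limits, depth, doublets, gene filter, fold and scaling. Scripts ran in Python 3.11.15 with pandas 2.3.3, numpy 2.4.6, matplotlib 3.10.9, scikit-learn 1.9.0 and scipy 1.17.1.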

Additional observations from a re-analysis of the deposited data

Results flagged for a closer look

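A group of 4 genes moved in opposite directions in classes or libraries set side by side, by 1.5-fold or more each way, and none of these differences was tested. Cxcr4, the receptor that holds neutrophils in marrow and marks aged cells, had a log2 ratio of JQ1 over control of -0.73 in low and 0.78 in high neutrophils; without the 16 JQ1 barcodes the ratio in low neutrophils was 0.839 with an interval that includes 1. Wfdc17, a secreted antiprotease-like protein, had log2 ratios of JQ1 over control of -0.89 in low and 0.80 in high neutrophils, and of low over high of 1.05 in control and -0.64 in JQ1. Without the doubtful barcodes it was at 2517 CPM in control low, 1400 in control high, 2154 in JQ1 low and 2970 in JQ1 high neutrophils. Thbs1, the matrix glycoprotein thrombospondin 1, had a log2 ratio of low over high of -1.09 in control and 0.77 in JQ1, and 37.2% of the JQ1 low UMIs lay in a single barcode. Cebpd, a stress-induced transcription factor, had -0.81 in control and 1.23 in JQ1, from 11 and 32 low members with a UMI, and was at 118 CPM in control low, 743 in JQ1 low and 590.2 in JQ1 low neutrophils without the 16 barcodes.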

How the results depend on the processing

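No paired analysis was possible because each treatment has 1 library and no replicate could be left out. The share of low cells was 24.7% in control and 23.03% in JQ1 after thinning to 1000 UMIs, 29.6% and 24.5% with the limit at 10 UMIs, and 14.8% and 11.8% among barcodes of 1000 to 4000 UMIs; the difference in points moved within its interval in all 14 alternatives.

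Genes higher in JQ1 numbered 425, but 662 with the limit at 10 Ccl3 and Ccl4 UMIs, 659 with a limit of 0.2% of UMIs, 121 among 1000 to 4000 UMIs, 196 with S100a8 and S100a9 of at least 2%, 234 with other-type markers under 2%, 263 without barcodes over 10000 UMIs, 136 without the 16 barcodes, 282 with each cell weighted alike, 753 with no gene filter and 218 at 50 UMIs and 100 CPM. Genes lower numbered 266, but 401 with the 0.2% limit, 105 at 1000 to 4000 UMIs, 140 with the 2% S100 limit, 161 with other-type markers under 2%, 173 without barcodes over 10000 UMIs, 106 without the 16 barcodes and 155 at 2-fold. Genes higher in low neutrophils numbered 41, but 76 with the limit at 10, 483 with the 0.2% limit, 62 with cells weighted alike, 11 relative to the median of all genes, 22 at 50 UMIs and 100 CPM and 13 at 2-fold; genes lower numbered 46, but 206 with the 0.2% limit and 71 relative to the median. The cause of these shifts was not tested.

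Reversed values were the log2 ratio of JQ1 over control of Saa3, 1.66 with the limit at 10 and 1.81 with the 0.2% limit, the median of pattern and Fc receptors, 0.20 without the 16 barcodes, and with the 0.2% limit the low over high median of circulating neutrophil genes, -0.34, and the ratio of Fbxl5, -0.00083. Of the values for named genes under alternatives, 431 of JQ1 over control kept direction and threshold and 23 kept direction only; for low over high these were 381 and 74. At this depth only 11 of 44 interferon genes and 4 of 17 genes often lowered by BET inhibitors were measured.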
